A study of Mus musculus with 26 samples.

Results

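Axon guidance ligands and receptors are the secreted or membrane-bound cues of growing axons and the proteins on the cell surface that read them. The 48 genes described here were taken by name from the 55141 genes of the count table. They comprise netrin-1 and 5 of its receptors, 3 Slit ligands and 3 Robo receptors, 9 semaphorins (5 secreted, 4 in the membrane), 7 plexins, 2 neuropilins, 8 ephrins (5 of the A kind, 3 of the B kind) and 10 Eph receptors (6 EphA, 4 EphB). Every one of the 48 had a row in both deposited tables.

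Netrin-1 attracts axons through Dcc and repels them through the Unc5 receptors. Slit proteins, secreted at the midline of the neural tube, repel axons that carry Robo receptors. Class 3 semaphorins are secreted and act through neuropilins paired with plexins, while other semaphorins sit in the membrane and bind plexins directly, and ephrins are membrane-bound ligands that signal to Eph receptor tyrosine kinases on neighbouring cells. Outside the nervous system the same families take part in somite boundary formation, vessel growth and cell sorting, so their RNA is not limited to neurons.

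Polyadenylated RNA was sequenced from mouse gastruloids, which are clumps of stem cells that lengthen into trunk-like structures, in 26 libraries of 8 lines and 15 groups. All lines carry HoxB Del/Del(i9-13), the controls included. On top of Ins(CBS5-10), InsDel5to10 has Del(CBS5-10), InsDel7to10 has Del(CBS7-10) and InsDel8to10 has Del(CBS8-10). InvDel7to10 carries Ins(CBS5-10), Inv(CBS5-10) and Del(CBS7-10), while InvClone1 and InvClone2 are separate clones of Ins(CBS5-10):Inv(CBS5-10). The Ins line carries Ins(CBS5-10), and Del has no further edit. The 120h stage (hours after aggregation) has 2 libraries of InsDel5to10, 2 of InsDel7to10, 1 of InsDel8to10, 1 of InvDel7to10, 4 of InvClone1, 2 of InvClone2, 3 of Ins and 3 of Del. The 144h stage has 2 of InvClone1 and 1 each of InsDel8to10, InvDel7to10, Ins and Del, and InvClone1 had 1 more at 96h and 1 at 168h. No treatment is named in the labels, and each genotype other than the inversion is represented by 1 line, so an allele and a line cannot be told apart. The sources used here do not give the meaning of i9-13 and of CBS.

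Libraries held 18746411 to 37716547 counts. By the labels, libraries bear 1 of 4 names (ISML_first, ISML_second, ISML_third or TruSeq_second), and 1 line at 1 stage often has only 1 of them. Replicate 2 of InvClone1 at 144h had a mitochondrial share of 0.0864%, against 0.587% to 1.51% elsewhere, and replicate 2 of InvClone1 at 120h detected 54.8% of the genes in the table, the others 37.5% to 43.4%. Marker genes of trunk tissues were present at 120h in the ISML_second libraries, where the summed level was 989 to 1145 CPM (counts scaled to library depth) for 10 somite markers and 147 to 222 CPM for 8 neural progenitor markers. The neural crest markers Sox10, Foxd3, Tfap2a and Tfap2b stayed under 1 CPM on average at 144h and at 120h in those libraries. In bulk RNA, fewer cells of a type and less RNA per cell cannot be told apart.

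Per unit of transcript length, the guidance genes ranged from Ntn1 at 54.5 ± 13.3 FPKM (fragments scaled to transcript length and library depth, mean ± SD over 26 libraries) down to Epha8 at 0.0730 ± 0.0527 FPKM. Of the 48, 16 averaged at least 10 FPKM, 25 lay from 1 to under 10 FPKM and 7 lay under 1 FPKM. After Ntn1, which codes for netrin-1, came the ephrin-B gene Efnb2 at 31.1 ± 8.14 FPKM and its receptor Ephb4 at 27.2 ± 6.36 FPKM. The plexins Plxnb2 and Plxna1, receptors for membrane-bound and secreted semaphorins, followed at 22.1 ± 5.05 and 21.8 ± 4.16 FPKM, and the ephrin-A gene Efna4 at 19.5 ± 4.92 FPKM. Neighbours in this order from Efnb2 downwards differed by less than 1 SD. Across the 26 libraries Ntn1 spanned 13.9 to 79.4 FPKM, Efnb2 15.1 to 53.2, Ephb4 13.0 to 36.9, Plxnb2 11.8 to 29.7, Plxna1 11.7 to 29.3 and Efna4 8.17 to 29.5 FPKM. The 7 genes under 1 FPKM were Epha3, Dcc, Plxna4, Robo3, Unc5d, Unc5c and Epha8, and 4 of them are receptors of netrin or Slit. The ligand netrin-1 was thus the most abundant of the 48 transcripts per length while its attractive receptor Dcc averaged 0.365 ± 0.496 FPKM.

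**Figure D1:**
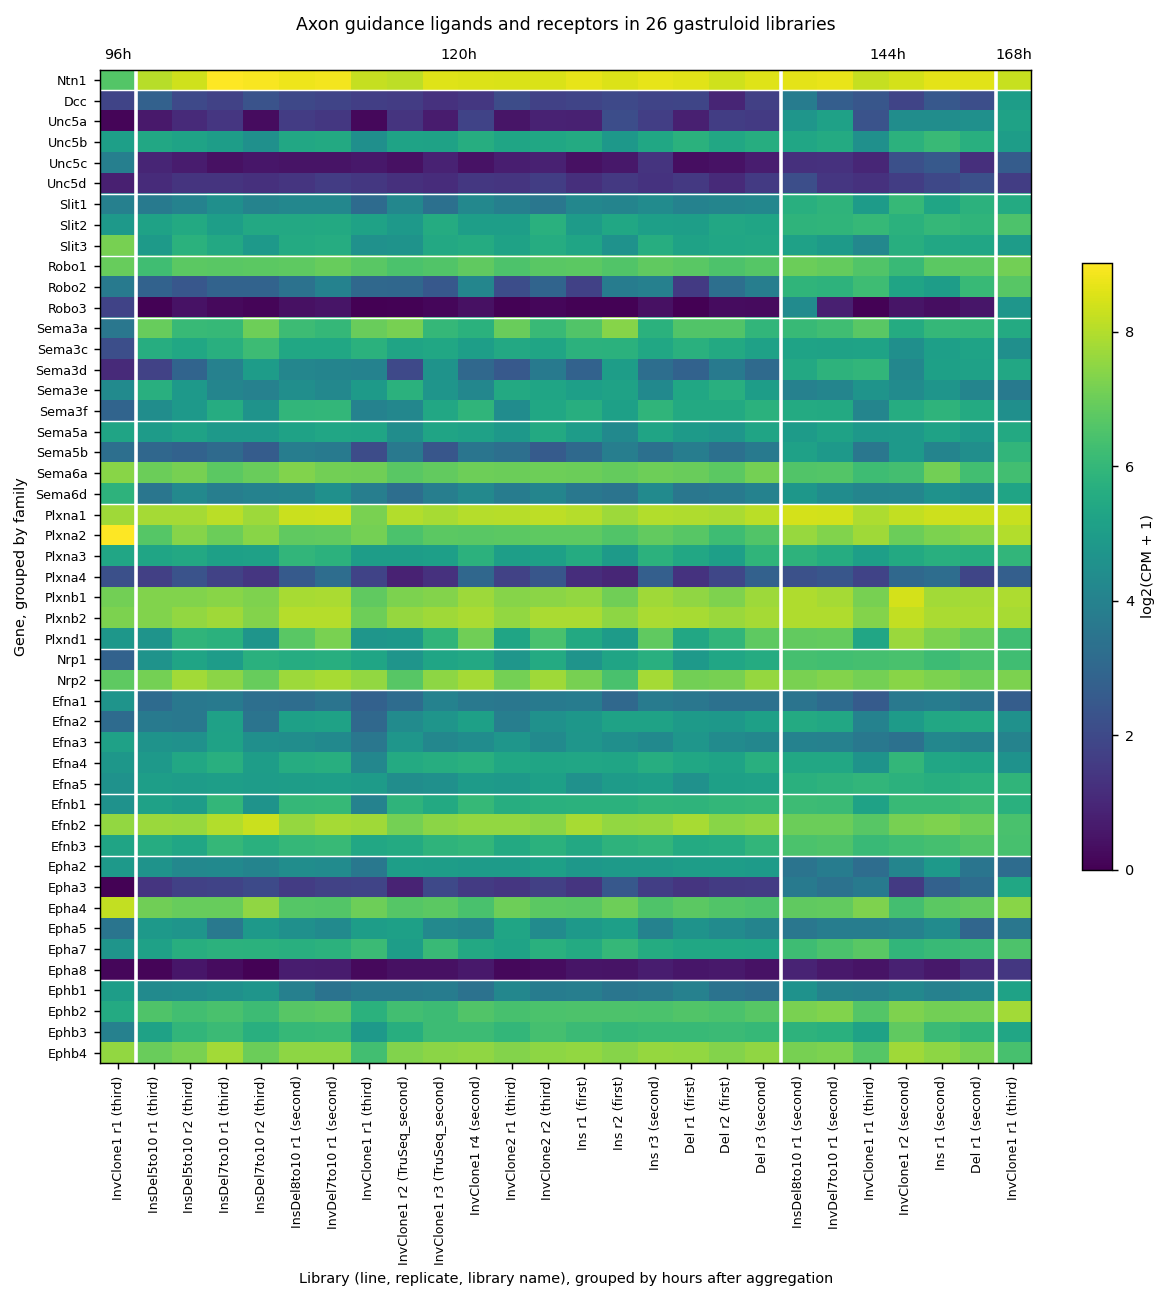
Level of the 48 axon guidance genes (rows, grouped by family) in the 26 libraries (columns, grouped by hours after aggregation, with the library name in brackets), as log2(CPM + 1). Ntn1 is bright in all columns from 120h on, Unc5a and Robo2 brighten at 144h and 168h, and Robo3 is visible mainly in InsDel8to10 at 144h and InvClone1 at 168h.

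The comparison of 144h with 120h asks how the guidance genes changed as the gastruloids aged by 1 day. The netrin receptor Unc5a showed the steepest rise, 11.9 times as high at 144h, and the receptors Unc5c, Robo2 and Epha3 and the ligands Sema3d and Slit1 were 3.03 to 3.81 times as high. Among the netrin receptors 3 of 5 rose, and among the Slit receptors 1 of 2 tested. Netrin-1 itself did not pass the test, at 394 ± 28.3 CPM at 144h, against 417 ± 39.4 CPM at 120h (SD, n = 5 lines each). Of the 48 genes 47 had enough counts for the test, and 20 of them passed it, 16 higher and 4 lower at 144h, against 9.25% higher and 5.94% lower of all 15011 genes tested. The median log2 fold change of the 47 was 0.20, against -0.01 over all genes tested. The test was edgeR's quasi-likelihood test with Benjamini-Hochberg adjustment at 0.05, on the 10 ISML_second libraries of 5 lines (1 library per line and stage) with line and stage as terms. At an unadjusted p under 0.05 there were 29 of the 47, against 28.7% of all genes tested. DESeq2 called 21 of the guidance genes, and its share of all genes is not given here, so that count has no background. Whether replicates are separate cultures is not stated in the labels, so each p-value reflects only how these libraries vary, which may be a technical spread. A lone library per line and stage leaves no replicate check within a line, and the lines serve as replicates here.

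**Figure D2:**
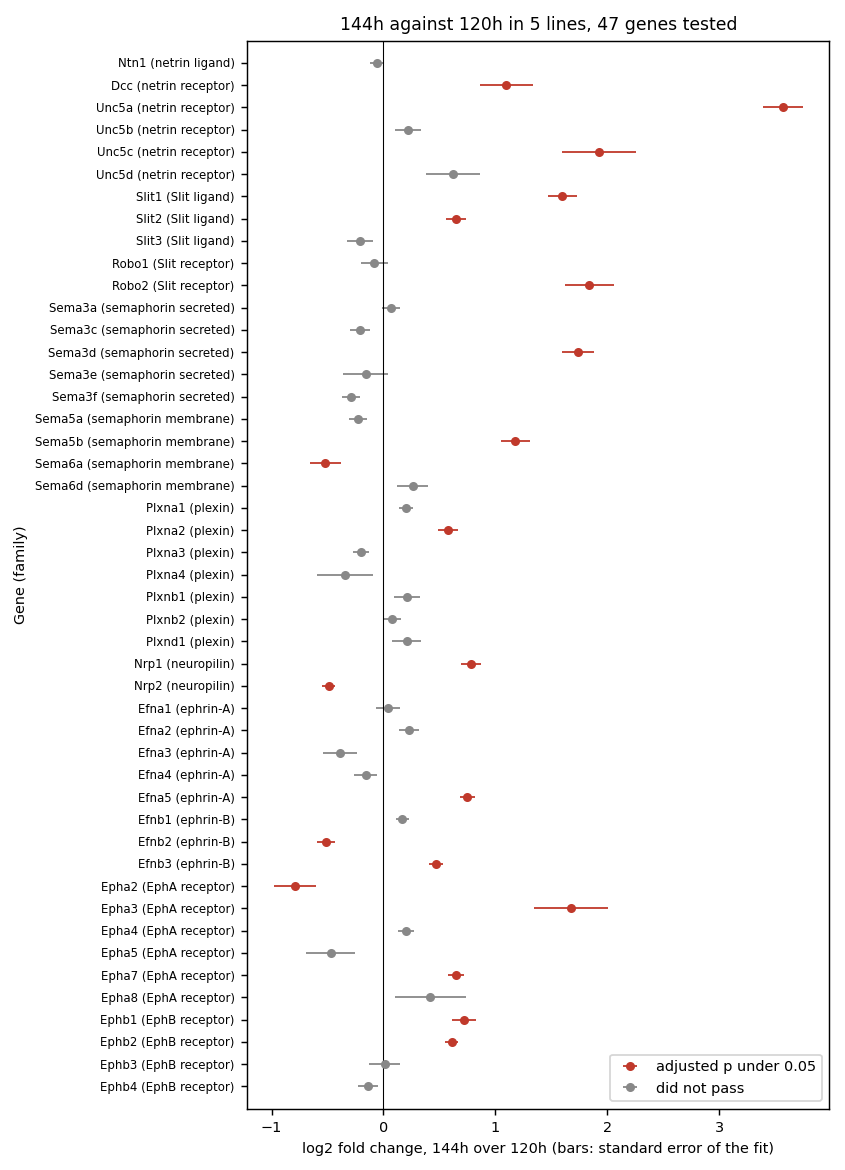
Log2 fold change of 47 axon guidance genes, 144h over 120h (horizontal axis, with the standard error of the fit as bars), in the order of families. The 20 genes with an adjusted p under 0.05 are red, with 16 to the right of 0 and 4 to the left, and Unc5a lies farthest right at 3.57.

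Values of the 5 lines are given in the order InsDel8to10, InvDel7to10, InvClone1, Ins and Del. Among the netrin receptors, Unc5a (mm10 chr13:54949410-55006018), which codes for a receptor of repulsion, had 26, 35, 20.4, 20.6 and 22.3 CPM at 144h, against 2.04, 1.76, 2.55, 2.16 and 1.88 CPM at 120h. All 5 lines at 144h stood far above all 5 at 120h. The change was 3.57 ± 0.18 on the log2 scale (± SE, adjusted p = 4.09e-05). Unc5c, a second receptor of the same kind, stayed scarce, with 1.41, 1.47, 3.59, 4.70 and 1.30 CPM at 144h, against 0.400, 0.380, 0.347, 1.55 and 0.653 CPM at 120h. Each line was higher at 144h, although the ranges overlapped through Ins at 120h, and the log2 change was 1.93 ± 0.33 (adjusted p = 0.00581). Dcc, the receptor of attraction, had 12.8, 5.52, 2.65, 4.65 and 3.48 CPM at 144h, against 2.93, 2.61, 1.78, 2.63 and 2.25 CPM at 120h. It rose by 1.10 ± 0.24 on the log2 scale (adjusted p = 0.0182), with InsDel8to10 at 144h well above the other lines and InvClone1 at 144h within the 120h range. Without InvDel7to10 the adjusted p of Dcc was 0.0678. Unc5b, a netrin receptor also known from vessels, and Unc5d did not pass, at 0.22 ± 0.12 and 0.62 ± 0.24 (adjusted p = 0.27 and 0.126).

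Slit ligands and receptors moved in part. Slit1, a midline repellent, had 50.4, 58.2, 64.5, 38.8 and 55.2 CPM at 144h, against 17.1, 17.2, 17.5, 19.4 and 17.1 CPM at 120h, and each 144h library lay above each 120h library. Its log2 change was 1.60 ± 0.13 (adjusted p = 0.000183). For Slit2, a ligand of the same family, the values were 58.2, 59.5, 53.1, 63.1 and 59.4 CPM at 144h, against 42.6, 43.7, 32.7, 33.5 and 38.5 CPM at 120h, again without overlap, and the change was 0.65 ± 0.09 (adjusted p = 0.00207). Slit3 did not pass, at -0.21 ± 0.12 (adjusted p = 0.294). Robo2, a Slit receptor on axons, had 59.3, 56.8, 37.8, 31.6 and 66.9 CPM at 144h, against 9.68, 15.2, 16.8, 14.2 and 13.7 CPM at 120h and changed by 1.84 ± 0.22 (adjusted p = 0.00118). Every 144h value of Robo2 lay above every 120h value. Robo1, the more abundant receptor, did not pass, at 105 ± 22.6 CPM at 144h, against 111 ± 7.75 CPM at 120h (SD, n = 5 each). Robo3, which in mouse commissural axons offsets the response to Slit before the midline is crossed, was too scarce for the test. It had 19.3, 0.737, 0.416, 0.254 and 0.478 CPM at 144h, against 0.311, 0.427, 0.309, 0.328 and 0.204 CPM at 120h, and among these 10 libraries it exceeded 1 CPM only in InsDel8to10 at 144h. That library also had the highest summed level of 10 neuron markers at 144h, 268 CPM, against 128 to 169.7 CPM in the other 4 lines, and the part of neurons in its Robo3 and Dcc values was not tested.

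Of the 9 semaphorins 2 rose and 1 fell. Sema3d, a secreted ligand, had 43.1, 56.2, 17.0, 34.0 and 34.9 CPM at 144h, against 16.5, 16, 7.22, 8.68 and 7.68 CPM at 120h. It rose in each line, without overlap between the stages, by 1.74 ± 0.14 (adjusted p = 0.000207), and in the fit of all 26 libraries its change was 1.78 with an adjusted p of 0.0831. Sema5b, a membrane semaphorin, had 35.2, 28.5, 28.6, 15.9 and 21.2 CPM at 144h, against 13.2, 11.8, 10.3, 9.01 and 12.0 CPM at 120h and rose by 1.18 ± 0.13 (adjusted p = 0.000742). Sema6a, a membrane ligand of A-type plexins, had 95.2, 97.5, 79.6, 138 and 76.7 CPM at 144h, against 159, 138, 130.1, 129 and 141 CPM at 120h. It fell by 0.52 ± 0.14 on the log2 scale (adjusted p = 0.0364), with Ins the exception among the lines, and did not pass without any 1 of InsDel8to10, InvDel7to10, InvClone1 or Del (adjusted p = 0.107 to 0.205). The other 6, among them Sema3a and Sema3f, the classical ligands of Nrp1 and Nrp2, ranged from -0.29 (Sema3f, adjusted p = 0.0565) to 0.26 (Sema6d, adjusted p = 0.269).

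The neuropilins, ligand-binding partners of plexins, moved in opposite directions. Nrp1, which binds Sema3a, had 82.4, 76.7, 84.6, 71.1 and 84.9 CPM at 144h, against 47.3, 49.4, 42.9, 51.0 and 46.0 CPM at 120h, a rise of 0.78 ± 0.09 (adjusted p = 0.000851). Nrp2, which binds Sema3f, had 146, 162, 169.9, 151 and 130.1 CPM at 144h, against 206, 231, 224, 222 and 195 CPM at 120h and a change of -0.49 ± 0.06 (adjusted p = 0.00116). The stages did not overlap in either gene within the ISML_second libraries. Over all libraries Nrp2 ran from 130.1 to 169.9 CPM at 144h, inside its range of 86.6 to 231 CPM at 120h. In the fit of all 26 libraries Nrp2 changed by -0.52 with an adjusted p of 0.157. Of the 7 plexins 1 passed the test. Plxna2, a partner of neuropilins, had 198, 160.2, 127, 150.3 and 165 CPM at 144h, against 113, 115, 103, 115 and 95 CPM at 120h, a rise of 0.58 ± 0.09 (adjusted p = 0.00367). The remaining plexins ranged from -0.34 ± 0.25 for Plxna4 to 0.21 ± 0.12 for Plxnb1 (adjusted p = 0.415 and 0.306). Plxnd1, the receptor of Sema3e in vessels, was at 141 ± 37.5 CPM at 144h, against 122 ± 18.5 CPM at 120h (SD, n = 5 each) and did not pass (adjusted p = 0.332).

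Among the ephrins 2 rose and 1 fell. Efna5, a ligand of EphA receptors, had 52.6, 56.0, 54.4, 49.8 and 53.6 CPM at 144h, against 31.7, 32.0, 30.1, 32.4 and 35.1 CPM at 120h and rose by 0.75 ± 0.07 (adjusted p = 0.000404). The B-type ligand Efnb3 had 87.3, 91.8, 75.8, 82.2 and 94.2 CPM at 144h, against 63.9, 66.6, 62.4, 60.6 and 61.2 CPM at 120h, a rise of 0.47 ± 0.06 (adjusted p = 0.00207). Efnb2, known from somite boundaries and from arteries, went the other way. It had 126, 128, 142, 156 and 129 CPM at 144h, against 195, 225, 188, 193 and 184 CPM at 120h, a change of -0.51 ± 0.08 (adjusted p = 0.0051). None of the 3 overlapped between stages. Efna1, Efna3 and Efna4, neighbours within mm10 chromosome 3, and Efna2 did not pass (adjusted p = 0.12 to 0.846).

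Of the 10 Eph receptors 4 rose and 1 fell. Epha7, a receptor of A-type ephrins, had 73.0, 88.3, 60.0, 68.9 and 69.9 CPM at 144h, against 50.3, 54.1, 43.1, 45.8 and 39.7 CPM at 120h, a rise of 0.65 ± 0.07 without overlap (adjusted p = 0.000674). Ephb2, a receptor of B-type ephrins, had 149, 159, 155, 138 and 141 CPM at 144h, against 101, 108, 93.8, 88.0 and 101 CPM at 120h and rose by 0.61 ± 0.06 (adjusted p = 0.000587). Ephb1, a related receptor that steers retinal axons, had 23.1, 15.5, 17.5, 14.6 and 17.2 CPM at 144h, against 14.1, 9.73, 9.65, 11.7 and 8.94 CPM at 120h and rose by 0.72 ± 0.11 (adjusted p = 0.00351). Both receptors were higher at 144h in all 5 lines with no overlap between stages. Epha3, another receptor of A-type ephrins, had 12.2, 9.53, 1.87, 6.05 and 8.08 CPM at 144h, against 2.04, 2.42, 1.97, 2.16 and 2.04 CPM at 120h. Of these pairs that of InvClone1 alone did not move with the other 4 lines. The ISML_third pair of InvClone1, outside the fit, had 12.2 CPM at 144h, against 2.63 CPM at 120h. In the fit Epha3 changed by 1.68 ± 0.33 (adjusted p = 0.0112), and the adjusted p was 0.0556 without Del and 0.0548 without InvDel7to10. Epha2, an epithelial EphA receptor, had 10.2, 13.0, 16.1, 28.3 and 10.5 CPM at 144h, against 20.7, 19.7, 29.7, 29.4 and 30.3 CPM at 120h. It changed by -0.79 ± 0.19 (adjusted p = 0.0289), was nearly level in Ins, and did not pass when any 1 of the other 4 lines was left out (adjusted p = 0.0730 to 0.168). Epha4, a receptor of both ephrin kinds, and Ephb4, the receptor of Efnb2 in veins, had log2 differences of 0.20 ± 0.07 and -0.14 ± 0.09 and did not pass (adjusted p = 0.107 and 0.375).

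**Figure D3:**
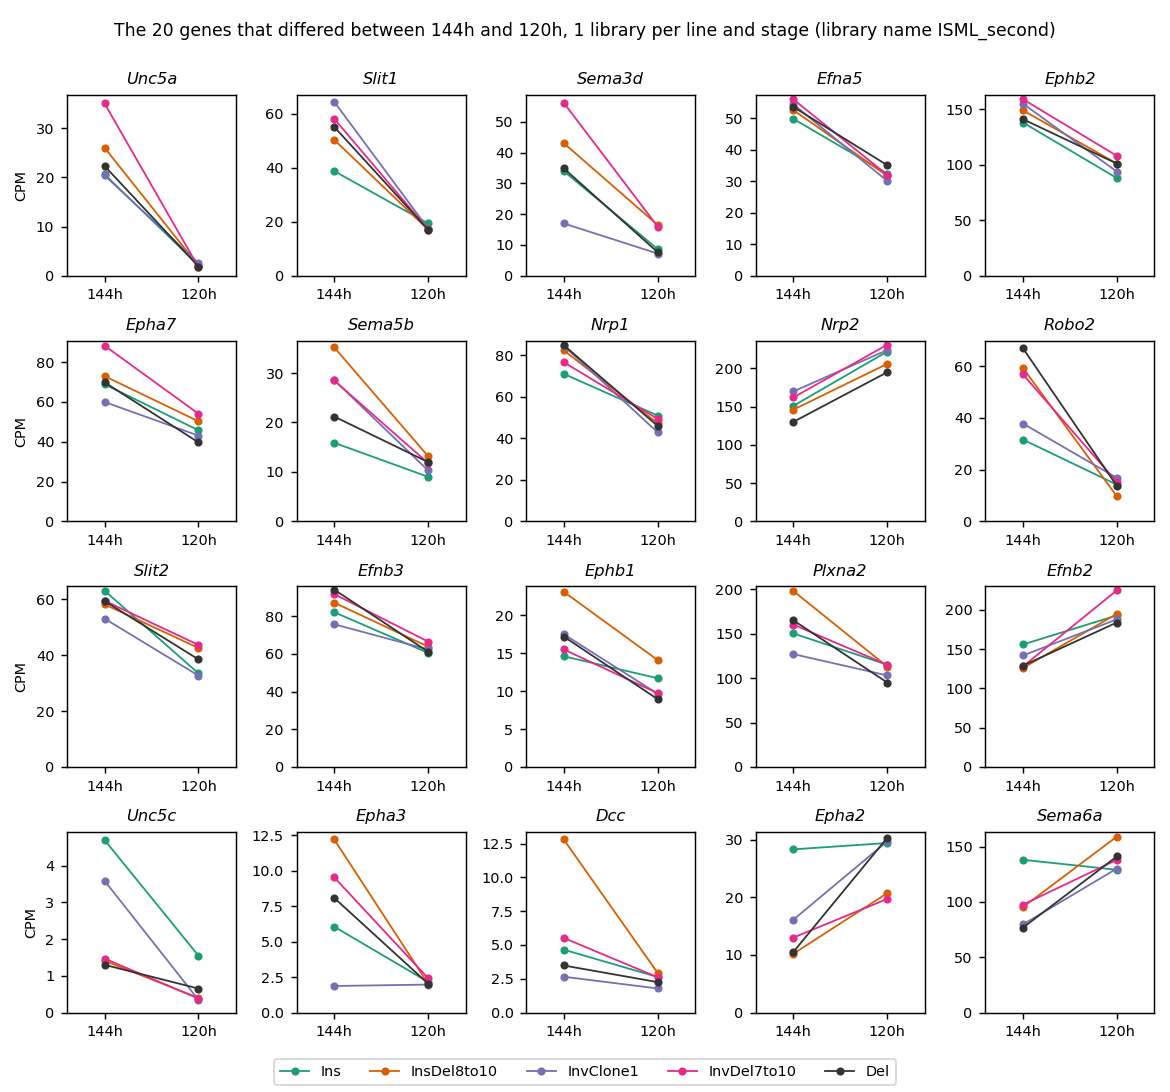
The 20 axon guidance genes past the threshold, as CPM in each library at 144h (left) and 120h (right), with a line joining the 2 libraries of each of the 5 lines. Lines slope the same way in 18 panels, and the exceptions are Sema6a (Ins) and Epha3 (InvClone1).

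In 18 of the 20 genes all 5 lines changed in the same direction. The 20 were chosen by a test on these same libraries, so like directions and parted ranges follow in part from that choice. For both, the share among all genes called was not counted. The ranges of the stages did not overlap in 15 of the 20, and over all 47 tested in 16, where Efnb1 was the gene without overlap that did not pass. Among all 15011 genes tested 17.8% did not overlap. All these ranges are of the ISML_second libraries alone. Over the libraries of every name, the 144h and 120h ranges of Sema3d, Sema5b, Plxna2, Nrp2, Efnb2, Epha7, Ephb1 and Ephb2 did overlap. A pair of InvClone1 libraries with the name ISML_third, at 144h and 120h, lay outside the fit, and there all 20 genes had the direction of the fit, as had 91.8% of all genes called. Without the line InvClone1, whose 144h library had the low mitochondrial share, the test called 30 of the guidance genes, 21 higher and 9 lower, but also more of all genes, 16.4% higher and 15.6% lower of 15067.

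Tissue markers moved with the same contrast. The 10 neuron markers all passed as higher, with sums of 128 to 268 CPM at 144h, against 27.7 to 35.3 CPM at 120h. All 8 neural progenitor markers were higher, with sums of 451 to 827 CPM at 144h, against 147 to 222 CPM at 120h. Both lists lay higher at 144h in each line, with no overlap between stages. The 6 presomitic mesoderm markers were all lower, at 13.8 to 54.5 CPM at 144h, against 133 to 170 CPM at 120h. Somite markers (7 of 10 lower, 2 higher) summed to 538 to 653 CPM at 144h, against 989 to 1145 CPM at 120h. Tailbud markers (6 of 6 lower) summed to 94.9 to 268 CPM at 144h, against 353 to 444 CPM at 120h. These 3 lists of the paraxial and tail tissues lay lower at 144h, again with no overlap. Floor plate markers (3 of 5 higher), known from a source of netrin-1 in the neural tube, summed to 126 to 181 CPM at 144h, against 94.3 to 116 CPM at 120h. The largest part of that sum was Spon1, which did not pass, at 66.5 to 136 CPM at 144h, against 45.8 to 68.2 CPM at 120h. Endothelial markers (1 of 8 higher, 2 lower) overlapped, at 113 to 199 CPM at 144h, against 114 to 194 CPM at 120h. Of the other marker lists, endoderm had 4 higher and 3 lower of 8 tested, notochord 3 higher and 1 lower of 5, cardiac and lateral mesoderm 3 higher and 0 lower of 5, and neural crest (2 tested) and pluripotency (4 tested) had none past the threshold. The part of these tissue shares in the guidance genes' changes was not tested.

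Other genes of the pathway were called in both directions, and the shares of all genes tested were 9.25% higher and 5.94% lower. Of 21 further ligands of these and related families 4 rose and 2 fell, among them Sema3g (1.98 ± 0.25, 6.82 CPM at 144h, against 1.74 CPM at 120h) and Ntn5 (-1.23 ± 0.16, 1.85 CPM at 144h, against 4.36 CPM at 120h). Further receptors numbered 14, of which 12 were tested, 3 rose and 2 fell, such as Plxnc1 (1.11 ± 0.19) and Epha1 (-0.86 ± 0.18). Of 32 cytoplasmic effectors 10 rose and 3 fell. Dpysl4 and Dpysl3, members of the collapsin response mediator family that acts below semaphorin receptors, rose by 1.35 ± 0.11 and 0.50 ± 0.07. Of 9 genes of axonal adhesion and growth 6 rose and none fell, and the cell adhesion molecules Nrcam (2.86 ± 0.14), Chl1 (4.30 ± 0.29) and Cntn2 (2.57 ± 0.18) led them. The median log2 changes of the 4 lists were -0.08, 0.11, 0.18 and 2.34, against -0.01 over all genes tested.

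Promoter sequences were available from RefSeq (GRCm38.p6, the mm10 assembly) for 39 of the 48 genes, in 46 windows of 300 bases that run from 250 before to 50 after an annotated start. The 4 windows below belong to the 2 rising and the 2 falling genes with the smallest p in the stage comparison among those with a single window, and are shown because the pairs moved in opposite directions. They lie at chr13:54949161-54949460 (Unc5a, plus strand), chr5:12382916-12383215 (Sema3d, plus strand), chr1:62703067-62703366 (Nrp2, plus strand) and chr8:8661193-8661492 (Efnb2, minus strand). Capitals mark the motif CCGCCC, known as a GC box, on either strand of the window. The motif TATAAA, known as a TATA box, is marked in the same way, and a match on the other strand shows as the reverse complement.
Unc5a: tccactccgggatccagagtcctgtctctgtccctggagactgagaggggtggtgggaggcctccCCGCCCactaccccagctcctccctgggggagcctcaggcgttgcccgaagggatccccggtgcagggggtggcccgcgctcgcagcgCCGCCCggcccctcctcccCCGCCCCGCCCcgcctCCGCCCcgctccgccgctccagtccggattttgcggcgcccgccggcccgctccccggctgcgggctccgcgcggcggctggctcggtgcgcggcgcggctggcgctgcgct
Sema3d: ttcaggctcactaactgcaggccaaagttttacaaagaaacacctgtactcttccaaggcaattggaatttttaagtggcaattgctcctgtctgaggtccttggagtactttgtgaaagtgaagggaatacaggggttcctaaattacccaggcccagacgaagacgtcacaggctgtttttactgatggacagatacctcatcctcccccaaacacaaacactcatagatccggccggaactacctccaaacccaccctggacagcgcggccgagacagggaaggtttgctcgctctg
Nrp2: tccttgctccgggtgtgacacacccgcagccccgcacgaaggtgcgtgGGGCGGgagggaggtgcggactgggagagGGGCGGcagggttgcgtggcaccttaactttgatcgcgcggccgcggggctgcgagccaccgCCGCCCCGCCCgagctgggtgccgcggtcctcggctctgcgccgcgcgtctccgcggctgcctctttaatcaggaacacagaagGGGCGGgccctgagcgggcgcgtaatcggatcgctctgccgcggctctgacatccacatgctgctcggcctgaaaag
Efnb2: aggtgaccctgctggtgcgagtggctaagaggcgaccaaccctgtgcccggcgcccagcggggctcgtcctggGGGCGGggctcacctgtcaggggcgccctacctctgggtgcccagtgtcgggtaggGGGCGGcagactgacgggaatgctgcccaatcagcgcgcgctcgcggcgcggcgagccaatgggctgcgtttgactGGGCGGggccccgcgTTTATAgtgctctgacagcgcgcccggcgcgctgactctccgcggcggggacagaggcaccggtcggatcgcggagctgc
Unc5a and Nrp2, which moved in opposite directions, both hold 5 GC boxes and 37 CpG dinucleotides, at 78.3% and 70.7% GC. The window of Efnb2 holds 3 GC boxes, 1 TATA box and 35 CpG at 72.3% GC, and that of Sema3d holds none of the motifs searched and 8 CpG at 49.7% GC. Over all 46 windows CCGCCC occurred in 32 (69.6%), against 35.7% of the 32851 windows of all genes. The E-boxes CAGCTG and CAGATG, of a kind bound by proneural factors, each occurred in 2 of 46 (4.35%), against 16.3% and 17.2% of all windows, and TATAAA in 2 of 46, against 13.6%. All 4 motifs were searched on both strands. The median window of the guidance genes had 64.8% GC and 22 CpG, against 52.7% and 7 in all windows. These are descriptions of letters in the windows, and windows of 1 gene can overlap.

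Only InvClone1 was followed over 4 stages, with 1 ISML_third library at each of 96h, 120h, 144h and 168h, so its values carry no test, and a gene was counted where log2(CPM + 1) differed by at least 1 and 1 of the 2 libraries reached 1 CPM. At 96h several genes stood at levels that no later library of this course reached. Slit3 stood at 145, 22.5, 17.6 and 30.5 CPM at 96h, 120h, 144h and 168h, and Plxna2 at 521, 139, 213 and 250 CPM. Both were thus highest at 96h by a wide margin. Unc5c, at 13.8, 0.508, 0.976 and 5.25 CPM (339, 11, 22 and 147 counts), was also highest at 96h and lowest at 120h. The membrane semaphorin Sema6d (55.7, 13.5, 16.4 and 37.5 CPM) and the EphA ligand Efna1 (24.2, 5.96, 5.01 and 5.32 CPM) were lower at 120h in the same way. Of the 46 genes measured 12 were lower at 120h than at 96h by this rule, against 7.55% of 13504 genes, and 9 were higher, against 4.1% of them. The 120h library of this course is replicate 1 of InvClone1, which held the lowest 120h value of many of the guidance genes. In it Epha2 and Ephb4, among the 12, had 11.2 and 76.7 CPM, against 27.9 and 189 CPM at 96h. The other InvClone1 libraries at 120h, with other library names, had 29.7 to 32.1 CPM of Epha2 and 159 to 184 CPM of Ephb4. There Efna1 had 8.09 to 15.1 CPM. Efna3, also among the 12, had 34.6 CPM at 96h and 10.9 CPM in replicate 1, against 17.2 to 26.1 CPM in those libraries. Slit3 and Plxna2 were below their 96h values in every InvClone1 library at 120h (22.5 to 45.5 and 87.7 to 139 CPM).

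The 9 that were higher at 120h than at 96h included 4 secreted semaphorins and netrin-1. Ntn1 stood at 97.7, 303, 299 and 309 CPM over the 4 stages, level from 120h on. Sema3a, a repellent that acts through Nrp1, had 11.0, 123, 105 and 44.9 CPM, and Sema3c had 3.53, 53.4, 36.6 and 21.6 CPM. Each peaked at 120h. Nrp1, their binding partner, had 6.21, 38.2, 81.7 and 76.3 CPM and stayed high after 120h, while Sema3d had 1.10, 15.2, 60.1 and 41.8 CPM and peaked at 144h. Epha7 followed with 25.1, 70.9, 105 and 89.6 CPM.

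Between 120h and 144h 8 of 45 genes measured were higher, against 4.53% of 13344 genes, and 2 (Epha5 and Efnb2) were lower, against 1.51%. Efnb1, among the 8, had 15.1 CPM at 120h and 35.5 CPM at 144h, while the other InvClone1 libraries at 120h had 44.0 to 65.1 CPM. Slit1 and Sema5b, among the 8 too, had 7.90 and 3.28 CPM at 120h in this course. In the other InvClone1 libraries at 120h they had 9.1 to 17.5 and 4.28 to 11.5 CPM. For Robo2, also among the 8, all InvClone1 libraries at 120h had 4.64 to 16.8 CPM. Robo2 had 11.8, 7.34, 73.2 and 101 CPM over the course, Slit1 14.4, 7.90, 30.1 and 44.3 CPM and Epha3 0.0406, 2.63, 12.2 and 40.3 CPM. Epha3 had 1 count at 96h and was higher at each later stage. Efnb2 had 188, 210.3, 102 and 84.9 CPM, and was lower at the last 2 stages than at the first 2.

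At 168h 9 of 48 genes were higher than at 144h, against 5.77% of 13702 genes, and 1 (Sema3a) was lower, against 0.657%. Receptors that had been scarce were found there. Dcc stood at 2.64, 2.17, 4.39 and 31.5 CPM and Unc5a at 0.0812, 0.139, 3.95 and 36.0 CPM (2, 3, 89 and 1009 counts). Robo3 had 62, 0, 1 and 723 counts in the 4 libraries, or 25.8 CPM at 168h, where a count of 0 allows up to 3 counts. Sema5b reached 60.8 CPM at 168h, against 11.1 CPM at 144h, and Ephb2 218 CPM at 168h, against 96.8 CPM at 144h. Each of these 5 was thus highest at 168h. Over the course 12 of the 48 genes were highest at 96h, 6 at 120h, 4 at 144h and 26 at 168h, against 28.3%, 24.8%, 10.7% and 36.2% of 14324 genes, and the 26 include genes such as Ntn1 that were nearly level at the later stages. Set directly against 96h, 23 of the 48 were higher at 168h, against 12.2% of 14068 genes, and 9 were lower, against 6.27%. Of these differences that of Epha3 was the largest upward and that of Slit3 the largest downward. Summed neuron markers stood at 49.8, 22.9, 93.8 and 700.4 CPM at the 4 stages, the sum of neural progenitor markers was 839 CPM at 168h, against 20.5 CPM at 96h, and that of presomitic markers 13.1 CPM at 168h, against 483 CPM at 96h. Their part in the guidance genes' levels was not tested.

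**Figure D4:**
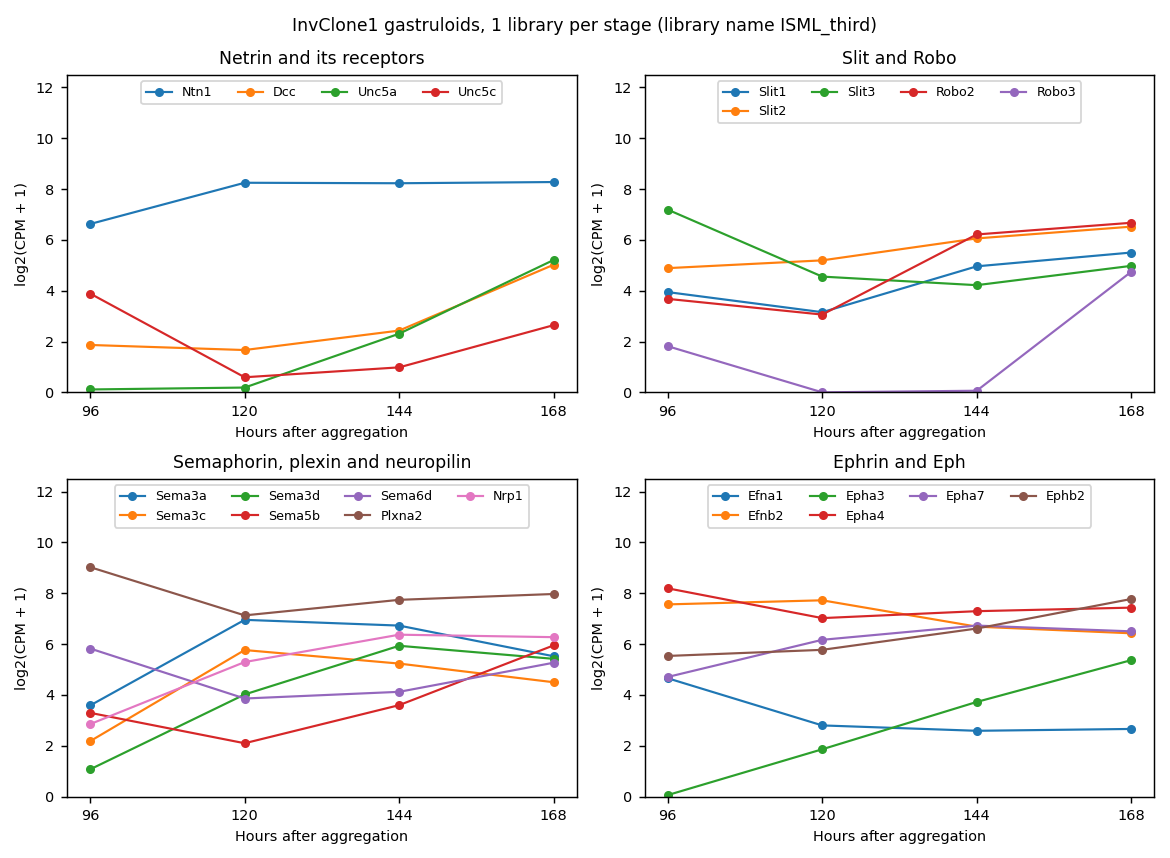
Guidance genes in InvClone1 gastruloids at 96h, 120h, 144h and 168h, as log2(CPM + 1), with 1 library per stage and no error bars. Slit3, Plxna2, Unc5c and Efna1 are highest at 96h, Sema3a and Sema3c at 120h, and Dcc, Unc5a, Robo3, Sema5b and Ephb2 at 168h.

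The genotype comparisons at 120h ask whether the edits of the HoxB cluster went with other levels of the guidance genes. None of the 48 passed edgeR's test in any of the 5 comparisons, which came from 1 fit of all 26 libraries with group and library name as terms. Ins against Del, a line with the insertion against one without it, gave 0 of 48 genes at an unadjusted p under 0.05, against 1.06% of 17769 genes. DESeq2 called 0 of the 48, and the adjusted test called 0.00563% of all genes. With the replicate numbers as a block 2 genes were called, none of them a guidance gene. The 3 guidance genes with the smallest p were Sema3e, Unc5b and Plxna4. Sema3e, the ligand of Plxnd1, had 33.0, 36.2 and 18.5 CPM in Ins, against 40.1, 50.9 and 31.2 CPM in Del (-0.51 ± 0.26, adjusted p = 1.0). Unc5b had 45.1, 27.4 and 41.0 CPM in Ins, against 53.0, 42.1 and 47.8 CPM in Del (-0.33 ± 0.18, adjusted p = 1.0). Plxna4 was scarce, at 1.25, 0.957 and 5.72 CPM in Ins, against 1.53, 2.81 and 6.04 CPM in Del, and in both lines only the third replicate, an ISML_second library, exceeded 5 CPM. The groups overlapped in all 3 genes, although Ins was lower than Del at each replicate number.

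A line with the deletion of CBS5-10 was set against an inversion clone in InsDel5to10 and InvClone2, which share the library name ISML_third. Of the 48 genes 2 had an unadjusted p under 0.05, against 6.53% of all genes, so the share was not above that of all genes. DESeq2 called 0 of the 48, and the adjusted test called 0.152% of all genes. Epha2 had 23.9 and 17.4 CPM in InsDel5to10, against 30.2 and 34.2 CPM in InvClone2 (-0.64 ± 0.17, adjusted p = 0.591). Ephb3, a receptor of B-type ephrins, had 36.2 and 59.9 CPM in InsDel5to10, against 62.2 and 82.1 CPM in InvClone2 (-0.59 ± 0.24, adjusted p = 0.762). For Plxna1, a semaphorin receptor, the values were 225 and 222 CPM in InsDel5to10, against 265 and 280.4 CPM in InvClone2 (-0.29 ± 0.15, adjusted p = 0.771). Somite markers summed to 656 to 799 CPM in InsDel5to10, against 814 to 953 CPM in InvClone2, and their part in these values was not tested.

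In InsDel7to10 against InvClone2, 8 of 48 had an unadjusted p under 0.05, against 8.93% of all genes. The adjusted test called 0.141% of all genes. DESeq2, which called more of all genes than edgeR, called 2 of the 48, Epha2 and Sema3e. Epha2 had 18.3 and 15.7 CPM in InsDel7to10, against 30.2 and 34.2 CPM in InvClone2, a difference of -0.92 ± 0.18 (adjusted p = 0.0663). Over the alternative settings this difference ran from -1.03 to -0.82, and its adjusted p lay on both sides of the threshold. Sema3e had 16.2 and 14.8 CPM in InsDel7to10, against 43.7 and 38.9 CPM in InvClone2 (-1.41 ± 0.33, adjusted p = 0.152). Efnb2 was at 253 and 318 CPM in InsDel7to10, against 188 and 169 CPM in InvClone2 (0.68 ± 0.18, adjusted p = 0.245). None of these 3 genes' groups overlapped. With 2 libraries per line, ranges of genes or marker sums often part by chance, and the share over all genes was not counted. Summed tissue markers also parted these lines without overlap in 6 of 12 lists, among them somite (1136 to 1435 CPM in InsDel7to10, against 814 to 953 CPM in InvClone2), endoderm (22.2 to 47.5 CPM in InsDel7to10, against 82.9 to 226 CPM in InvClone2) and pluripotency (1.38 to 2.19 CPM in InsDel7to10, against 11.7 to 20.1 CPM in InvClone2). Their part in the 3 differences was not tested.

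InsDel7to10 against InsDel5to10, 2 deletions of different extent, gave 7 of 48 at an unadjusted p under 0.05, against 10.7% of all genes. The adjusted test called 0.253% of all genes. It shares InsDel7to10 and InsDel5to10 with the comparisons above. Ntn1 had 518 and 486 CPM in InsDel7to10, against 268 and 332 CPM in InsDel5to10, a difference of 0.74 ± 0.16 (adjusted p = 0.0784). DESeq2, which called more of all genes than edgeR here, called Ntn1 and Sema3e. Over the alternative settings the Ntn1 difference ran from 0.60 to 0.90, and its adjusted p lay on both sides of the threshold. InsDel7to10 also held the highest and InsDel5to10 the lowest Ntn1 value of all 18 libraries at 120h (268 to 518 CPM). The summed floor plate markers were 57.9 to 69.3 CPM in InsDel7to10, against 14.5 to 39.5 CPM in InsDel5to10. That sum was mostly Spon1, at 54.0 and 68.9 CPM in InsDel7to10, against 10.0 and 21.9 CPM in InsDel5to10, while Shh was at 0.165 and 0 CPM in InsDel7to10, against 0.450 and 2.23 CPM in InsDel5to10, and Foxa2 at 1.54 and 0.286 CPM in InsDel7to10, against 2.2 and 6.9 CPM in InsDel5to10. Somite, endoderm, notochord and neural crest sums also did not overlap between these lines, as 2 libraries per line often give by chance. The neural crest sum was nearly all Ets1, at 160.2 and 208 CPM in InsDel7to10, against 69.6 and 128 CPM in InsDel5to10. Sox10, Foxd3, Tfap2a and Tfap2b stayed under 1 CPM in these libraries. The part of the markers in the Ntn1 difference was not tested. Sema3e was at 16.2 and 14.8 CPM in InsDel7to10, against 50.4 and 28.7 CPM in InsDel5to10 (-1.35 ± 0.33, adjusted p = 0.138). Sema3c, a secreted semaphorin, was at 51.1 and 72.0 CPM in InsDel7to10, against 47.9 and 40.2 CPM in InsDel5to10 (0.48 ± 0.16, adjusted p = 0.304).

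InvClone1 against Ins, an inversion clone against the insertion line, gave 0 of 48 at an unadjusted p under 0.05, against 0.951% of all genes. The name TruSeq_second occurs only in replicates 2 and 3 of InvClone1 at 120h, so the library term takes up their level. Replicate 4 is the only InvClone1 library at 120h that shares a name with Ins, so the 4 libraries do not count alike in this contrast. DESeq2 called 0 of the 48, and the adjusted test called 0.0169% of all genes. The smallest p among the guidance genes belonged to Unc5c, at 0.508, 0.317, 0.804 and 0.347 CPM in InvClone1, against 0.322, 0.498 and 1.55 CPM in Ins (-1.15 ± 0.70, adjusted p = 1.0), whose direction turned to 0.49 without replicate 4 of InvClone1. Sema3c (-0.30 ± 0.19) and Dcc (-0.81 ± 0.56) came next (adjusted p = 1.0 each). Replicate 1 of InvClone1, its ISML_third library, held the lowest 120h value of Ephb4 (76.7 CPM), Efnb1 (15.1 CPM), Ephb3 (27.9 CPM), Plxna1 (146 CPM) and Epha2 (11.2 CPM) among all 18 libraries, against 216, 65.1, 82.1, 324 and 34.2 CPM in the highest library of each gene. It was also lowest for Unc5a, Unc5b, Slit1, Slit3, Sema3f, Sema5b, Plxnb1, Plxnb2, Efna1, Efna2, Efna3, Efna4 and Ephb2. The share of all genes that were lowest in this library was not counted.

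Over the 18 libraries at 120h, 7 of the 48 genes stayed within 2-fold, with Sema6a (105 to 159 CPM) and Robo1 (76.1 to 121 CPM) the most even, and 10 spanned 5-fold or more or held a library at 0 counts. The library name moved with some of them. The 5 ISML_second libraries lay above all 13 others in 5 of the 48 genes, against 5.52% of all genes, and below all others in none, against 3.82%. These 5 were 4 plexins and Sema3f. Plxnd1, a receptor known from endothelial cells, ran from 105 to 148 CPM in the ISML_second libraries, against 24.3 to 85.4 CPM in the others. Endothelial markers summed to 114 to 194 CPM in the ISML_second libraries, against 6.19 to 113 CPM in the others. Floor plate sums (94.3 to 116 CPM in the ISML_second libraries, against 14.5 to 73.2 CPM in the others) and cardiac and lateral mesoderm sums (9.95 to 28.2 CPM in the ISML_second libraries, against 1.95 to 9.90 CPM in the others) did not overlap either. The part of these markers in Plxnd1 and the other 4 genes was not tested. Plxna4, a plexin of sensory axons, ran from 4.88 to 8.45 CPM in the ISML_second libraries, against 0.809 to 4.35 CPM in the others, and Plxna3, a receptor subunit for Sema3f, from 54.5 to 60.3 CPM in the ISML_second libraries, against 28.9 to 46.5 CPM. Plxnb1, a receptor of membrane semaphorins, ran from 208 to 235 CPM in the ISML_second libraries, against 111 to 187 CPM in the others. Sema3f itself ran from 52.9 to 62.0 CPM in the ISML_second libraries, against 15.2 to 49.4 CPM. InsDel8to10 and InvDel7to10 have their only 120h library in the ISML_second set, so line and library name cannot be told apart in them.

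**Figure D5:**
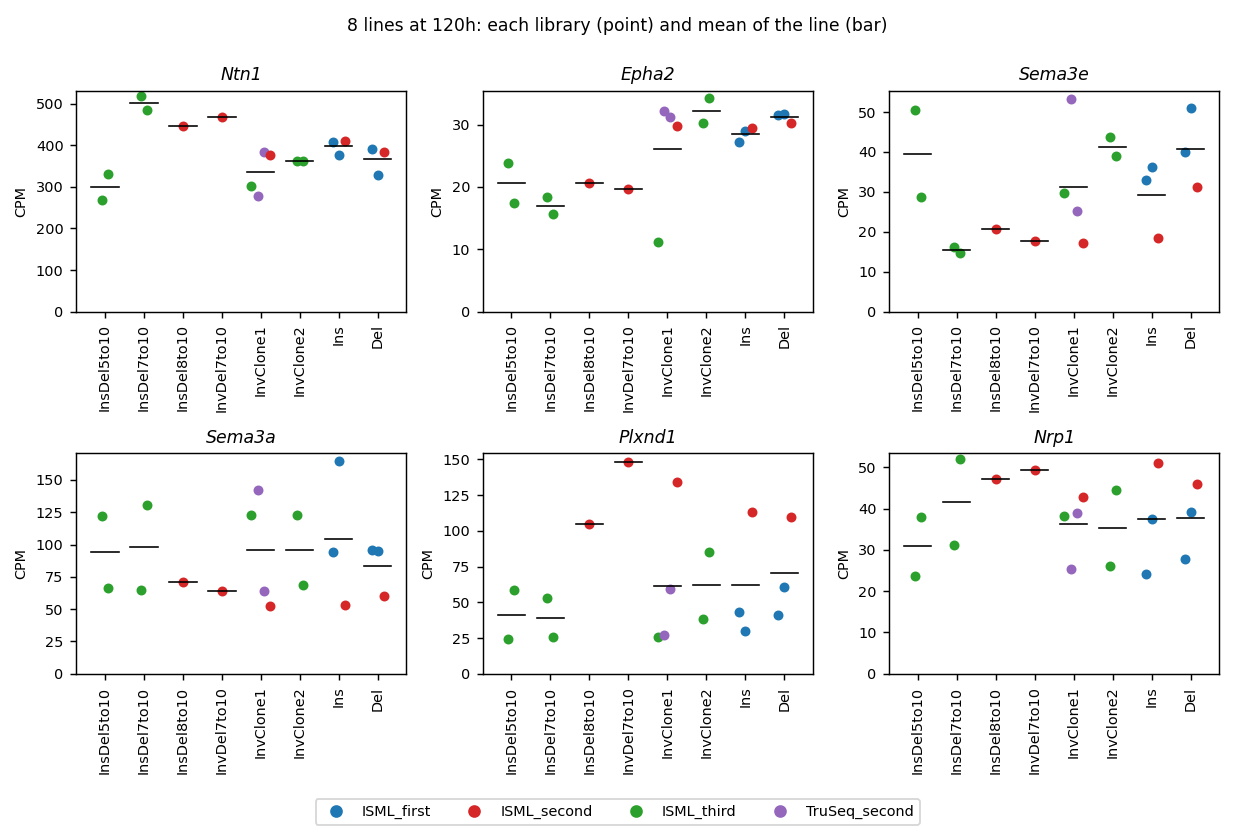
Level (CPM) of 6 guidance genes in the 8 lines at 120h, with 1 point per library coloured by library name and a bar at the mean of the line. Ntn1 is highest in InsDel7to10 and lowest in InsDel5to10, Epha2 and Sema3e are low in InsDel7to10, and Plxnd1 follows the library name, with all ISML_second points above 100 CPM.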

How the data were processed

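Gene counts of 26 libraries were used as the authors deposited them, as whole-number counts per gene that are not normalized, for 55141 genes, with FPKM values that the authors deposited for 55138 genes. The submitters' processing notes list the build mm10 and the tools STAR 2.7.10a, cutadapt 1.18 and Cufflinks 2.2.1. HTSeq appears solely in a deposited table's name, with strand setting and annotation not given, so reads of overlapping or antisense genes cannot be told apart. Per the labels' protocols the ISML kit made most libraries and the TruSeq Stranded mRNA kit made replicates 2 and 3 of InvClone1 at 120h. Of the table columns, those matching no sample (8) went unused.

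Groups, stages and library names came from the labels. The 48 members, the other lists and the tests were chosen with earlier results of these data known. The test was edgeR's quasi-likelihood F-test (version 4.0.16, R 4.3.3, robust dispersion, TMM scaling, minimum count 10, Benjamini-Hochberg over all genes tested, threshold 0.05). The stage fit held 10 ISML_second libraries and modelled line plus stage (15011 genes, leaving 4 residual degrees of freedom). Genotype comparisons came from 1 fit of 26 libraries with group and library name (17769 genes, 8 residual degrees of freedom), which takes a lone library's variance from the replicated groups. Both fits were tested on simulated counts with known changes. CPM values were counts scaled by TMM-adjusted library size, and 3 counts, the most that a count of 0 allows, equal 0.0795 to 0.160 CPM in a library, for counting error only. Log2 differences of single libraries used log2(CPM + 1).

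Members with full statistics were those past the threshold, or the 3 with the smallest p. Alternatives were DESeq2 1.42.0, other size factors, no filter, a minimum count of 50, other terms and subsets, and each library or line left out. Replicates of a group differed beyond sampling noise (chi-square over its degrees of freedom, 16 to 222) and were counted separately. Replicate numbers of Ins and Del were treated as pairs only in the alternative with a replicate block, since their deviations correlated by 0.511, 0.262 and 0.641. The Ins against Del values given for single genes came from the fit with group and library name, which holds no such block. In both lines replicates 1 and 2 are ISML_first and replicate 3 is ISML_second, so pairing and library name cannot be told apart in these correlations. Promoters came from RefSeq (GRCm38.p6), and no genome was used.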

Additional observations from a re-analysis of the deposited data

Results flagged for a closer look

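Among 4 InvClone1 libraries at 120h, Epha2 had 11.2 CPM in replicate 1, far below the 29.7 to 32.1 CPM of the other 3. In the same group Ephb1 had 9.65 CPM in replicate 4, below the 12.3 to 12.8 CPM of the other 3. Replicate 1 was the only ISML_third library of the group and replicate 4 the only ISML_second library. In all 45 sets of values were examined in this way, and chance sets apart about 1 in 20.

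Sema6a differed by 0.10 on the log2(CPM + 1) scale between 144h and 120h in Ins, a higher value at 144h, while it was lower at 144h in the other 4 lines. Epha3 differed by -0.05 in the ISML_second pair of InvClone1, while it was higher at 144h in the other 4 lines. In the ISML_third pair of InvClone1 it differed by 1.86. Neither difference between lines was tested, since each line has 1 ISML_second library per stage.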

How the results depend on the processing

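Between stages the test called 20 guidance genes, and 16 to 30 when 1 line was left out. Over all genes it called 2280, and 1365 to 4831 with 1 line left out, the most without InvClone1. Of the 20 genes 14 passed under all 11 alternatives, and Dcc, Epha2, Epha3, Nrp2, Sema3d and Sema6a did not pass in 1 to 5 of them. No direction turned. Without the line term, that is with no replicate block, 20 guidance genes and 2518 genes passed.

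Between genotypes the counts moved with many settings, and the cause was not tested. Ins against Del (1 gene) gave 0 in the 2 groups alone, 89 with no filter on low counts and 2 with the replicate block, by which Ins and Del were treated as paired. InsDel5to10 against InvClone2 (27 genes) gave 4 in the 6 ISML_third libraries alone, 48 by DESeq2, 383 with no filter, 6 with no library term and 3 to 9 with 1 library left out. The replicate block rests there on a shared number alone (correlation 0.317, against 0.262 to 0.641 for Ins and Del). With it this comparison gave 932 genes and 6 guidance genes, all lower (Efnb1, Epha2, Ephb3, Ephb4, Plxnd1 and Sema3d). InsDel7to10 against InvClone2 (25 genes) gave 0 in the 2 groups alone, in the 6 ISML_third libraries, with no library term, with the replicate block and with the crossed block, 161 by DESeq2, 554 with no filter and 0 to 295 with 1 library left out. Its guidance genes called numbered 2 by DESeq2, 5 with no filter and 0 to 2 with 1 library left out. InsDel7to10 against InsDel5to10 (45 genes) gave 4 in the 2 groups alone and with the crossed block, 3 in the 6 ISML_third libraries and with the replicate block, 292 by DESeq2, 957 with no filter, 7 with no library term and 3 to 939 with 1 library left out, the most without replicate 2 of InsDel7to10. Its guidance genes called numbered 1 (Ntn1) without the 6 InvClone1 libraries, 2 by DESeq2, 5 with no filter and 0 to 3 with 1 library left out. InvClone1 against Ins (3 genes) gave 9 with no filter, 0 with the replicate block and 3 to 303 with 1 library left out, the most without replicate 4 of InvClone1, and there Unc5c turned to 0.49, where it was -1.15 with all libraries (-1.92 to 0.49 with 1 library left out). Of the single-gene values 400 kept direction and side of the threshold, 14 passed only in the alternative, 14 passed only without it and 1 turned.

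The crossed block, the 6 ISML_third libraries and the fit without 6 InvClone1 libraries were chosen after seeing the data. For InsDel7to10 the numbers correlated by -0.221 with InvClone2 and -0.149 with InsDel5to10, and for InvClone1 and Ins by 0.174, 0.395 and 0.057. At 120h Robo3 and Epha8 lay under 1 CPM in all 18 libraries and Unc5c in all but Ins replicate 3 (1.55 CPM), so differences of these genes between lines were limited by depth.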
